A study of Mus musculus with 6 samples.

Results

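Dmp1, Tmem119, Smpd3 and Tnfrsf11b are genes of bone formation and mineralisation. They were chosen by gene symbol, for what they are known to do in bone, and with earlier results of these data known. Their levels were compared between mouse preadipocytes given Lhx8 siRNA and preadipocytes given vehicle. The 4 genes are among 817 genes that stand in either of the deposited tables: 3 are in a list of read counts, 3 are in a second table of values, and 2, Tmem119 and Smpd3, are in both. The question was whether genes of the osteogenic fate, an alternative to the adipogenic fate for preadipocytes, moved in 1 direction.

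There were 6 libraries of poly(A)-selected RNA, siRNA 1 to 3 and vehicle 1 to 3. The siRNA cultures were transfected with siRNA against Lhx8, a LIM homeobox transcription factor, and are labelled as LHX8 deficient. The vehicle cultures, labelled wild-type, received the transfection reagent Turbofectamine alone, so an effect of losing Lhx8 and an effect of any siRNA cannot be told apart. The cells are labelled as preadipocytes of the 3T3 line, with a line number that counts up from 3T3-L1 in the first vehicle library to 3T3-L6 in the last siRNA library, whereas the methods speak of cultured adipocytes. 3T3-L1 is a clonal mouse line. The labels do not say whether the libraries came from separate cultures, so the spread behind every p-value is that of these 6 libraries and may be technical. Lhx8 is not among the genes analysed here, so the knockdown was not checked.

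Osteoblasts and adipocytes arise from common mesenchymal progenitors. Osteoblasts lay down a collagen matrix, and mineral then forms in it under the control of acidic phosphoproteins, of enzymes that set the ratio of phosphate to pyrophosphate, and of secreted inhibitors. The same lineage governs bone resorption through the cytokine RANKL and its soluble decoy receptor osteoprotegerin. Dmp1 encodes an acidic phosphoprotein of the bone matrix and a classic marker of osteocytes, and Tmem119 encodes a membrane protein that promotes osteoblast differentiation and is also a marker of microglia. Smpd3 encodes neutral sphingomyelinase 2, which cleaves sphingomyelin to ceramide and without which mouse skeletal matrix mineralises poorly, and Tnfrsf11b encodes osteoprotegerin.

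The first table lists estimated read counts of 232 genes and the second lists values of 602 entries on a scale that is not given; 17 genes stand in both. Both are short lists rather than whole transcriptomes: the first accompanies the authors' own comparison, how genes entered the second is not stated, and 488 of its 496 testable genes passed the test used here. A call in either is therefore no independent evidence of a change. The counts listed sum to 24314, 25922 and 24849 in siRNA 1 to 3 and to 28919, 24569 and 130467 in vehicle 1 to 3. Vehicle 3 stood apart: it had the highest count in 201 of the 232 genes (86.6%), while among the 273 second-table genes that had all 6 values it was highest for 78 (28.6%). Count-list results are therefore given with and without vehicle 3. Of its 232 genes, 0 (0%) reached an adjusted p under 0.05 in edgeR (quasi-likelihood), and before adjustment 27 were under 0.05. DESeq2 called 1 gene when it estimated size factors and 0 when these were fixed at 1. Without vehicle 1 or vehicle 2, edgeR called 6 and 5 genes, none of them Dmp1, Tmem119 or Smpd3.

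Dmp1 (ENSMUSG00000029307) was the 1 gene of the 3 in the count list that was higher with siRNA. Its counts were 46, 38 and 37 in siRNA 1 to 3, against 29, 24 and 2 in vehicle 1 to 3. The siRNA libraries lay close together, all above every vehicle library, and the spread of the vehicle group came from vehicle 3, where the marker was all but missing. The means were 40.3 ± 4.93 with siRNA and 18.3 ± 14.4 with vehicle (SD, n = 3 each). The log2 fold was 1.13 ± 1.06 (SE), with an edgeR adjusted p of 0.330, so it did not pass the test. Over leave-one-out fits it ran between 0.60 and 1.62, with edgeR adjusted p between 0.263 and 0.526. In the exact permutation test Dmp1 reached p = 0.1, two-sided, which is the smallest that 3 libraries against 3 can give.

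Vehicle 3 was low for Dmp1 although it was high for most genes of the list. Its Dmp1 count was 0.0755 times the mean of vehicle 1 and 2, the 8th lowest such ratio of 222 genes, whose median was 5.72. Per 1000 listed counts, Dmp1 took 1.89, 1.47 and 1.49 in siRNA 1 to 3, against 1.00, 0.977 and 0.0153 in vehicle 1 to 3. Among the 232 genes ordered from the highest count, Dmp1 stood at places 59, 67 and 68 in the siRNA libraries and at places 71, 76 and 223 in the vehicle libraries. Without vehicle 3 the log2 fold was 0.60 ± 0.26, and its edgeR adjusted p was 0.434 (0.0562 before adjustment). The counting intervals show how little separates the libraries there: the 95% Poisson interval of 37 counts in siRNA 3 was 26.1 to 51.0, and that of 29 counts in vehicle 1 was 19.4 to 41.6. These intervals cover counting error only.

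Tmem119 (ENSMUSG00000054675) was lower with siRNA in the count list and higher with siRNA in the second table. In the count list it had 661, 720 and 638 counts in siRNA 1 to 3, against 1029, 965 and 2190 counts in vehicle 1 to 3. All 3 siRNA libraries lay below all 3 vehicle libraries, and vehicle 3 stood far above the other two. The mean counts were 673 ± 42.3 with siRNA and 1395 ± 690 with vehicle (SD, n = 3 each). The log2 fold was -1.05 ± 0.83 (SE, edgeR adjusted p = 0.321), and the exact permutation test gave p = 0.1. Tmem119 therefore did not pass the test in this list. Leaving vehicle 3 out gave -0.57 ± 0.13, where edgeR's p was 0.00404 before adjustment and 0.162 after it. Scaling the libraries to one another by TMM over the listed genes gave -0.15; on that scale the median over all 232 genes was -0.12, against -1.55 with a common library size, and 141 genes were negative and 91 positive, against 207 and 25. Relative to those medians Tmem119 lay above most genes on the common scale and close to the median under TMM.

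Tmem119 was less raised in vehicle 3 than most genes of the list. Its count there was 2.20 times the mean of vehicle 1 and 2, and of the 222 genes it had the 31st lowest ratio. Per 1000 listed counts, Tmem119 took 27.2, 27.8 and 25.7 in siRNA 1 to 3, against 35.6, 39.3 and 16.8 in vehicle 1 to 3. On that scale vehicle 3 lay below every siRNA library and vehicle 1 and 2 above, so the groups overlapped.

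In the second table the Tmem119 values were 301.57, 297.71 and 312.47 in siRNA 1 to 3, against 257.59, 274.71 and 269.07 in vehicle 1 to 3. Every siRNA library lay above every vehicle library, and vehicle 3 was in the middle of its group. The means were 304 ± 7.65 with siRNA and 267 ± 8.72 with vehicle (SD, n = 3 each), a ratio of 1.14. On the log2(value + 0.1) scale the difference was 0.19 ± 0.05 (SE), which passed limma's test with an adjusted p of 0.00122. It stayed between 0.16 and 0.21 when each library was left out in turn, with limma adjusted p between 8.77e-04 and 0.00595. Those p-values rest in part on variance that limma shares between genes. The difference was small for the table: 80.4% of the 496 genes tested had a larger one in absolute size.

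**Figure D1:**
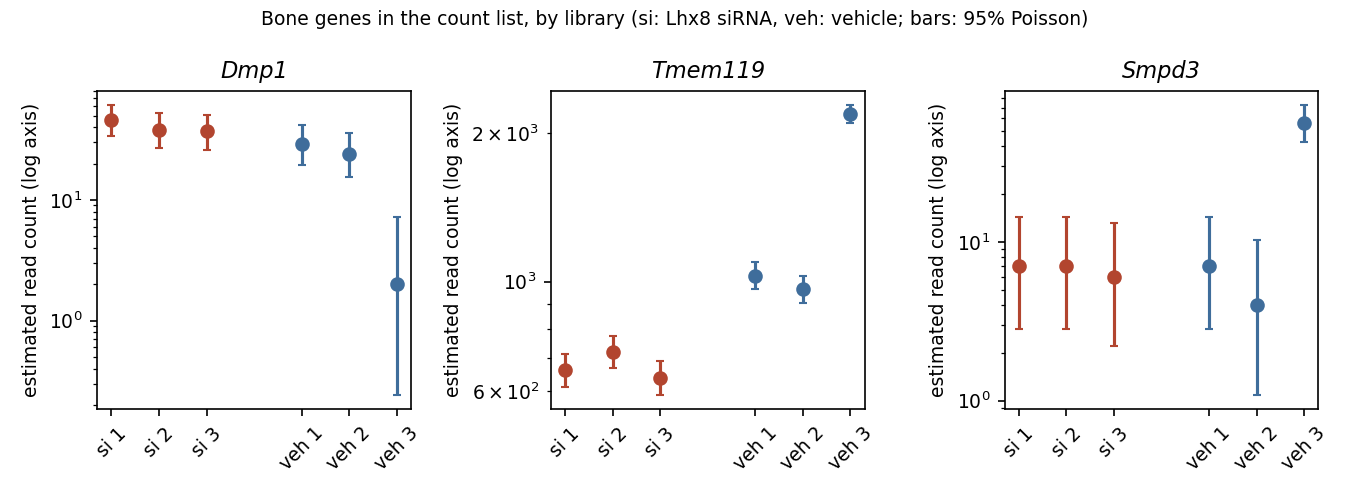
Estimated read counts (log axis) of Dmp1, Tmem119 and Smpd3 in each library, siRNA in red and vehicle in blue, with 95% Poisson intervals that cover counting error only. Vehicle 3 has 2 counts of Dmp1, 2190 of Tmem119 and 56 of Smpd3, and stands apart from vehicle 1 and 2 in all 3 panels.

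Smpd3 (ENSMUSG00000031906) was at the edge of what the count list could measure. It had 7, 7 and 6 counts in siRNA 1 to 3, against 7, 4 and 56 counts in vehicle 1 to 3. The groups overlapped, and vehicle 3 alone stood apart. The 95% Poisson interval of the 4 counts in vehicle 2 was 1.09 to 10.2, which holds all the siRNA counts, whereas that of the 56 counts in vehicle 3 was 42.3 to 72.7. The mean counts were 6.67 ± 0.577 with siRNA and 22.3 ± 29.2 with vehicle (SD, n = 3 each). The log2 fold was -1.73 ± 1.19 (SE, edgeR adjusted p = 0.317), and the exact permutation test gave p = 0.9. Without vehicle 3 the sign turned, to 0.27 ± 0.48 (edgeR adjusted p = 0.811), and TMM scaling gave -0.00. The median count was 7 in either group. Counts of this gene may be uncertain for another reason too. In the GENCODE M21 annotation 3 genes overlap its span, Prmt7 and Gm10629 on the opposite strand and Gm26786 on the same one. Whether their exons overlap was not examined, and whether counting used strand is not stated. The other 3 genes overlap none there.

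In the second table Smpd3 had values of 12.98 and 12.49 in siRNA 1 and 2, against 9.98 in vehicle 2. The other 3 libraries held date-format cells for Smpd3, which were left out because nearly all such cells equal the mean of their group's other values. Both siRNA values lay above the 1 vehicle value, with a log2 difference of 0.35. Smpd3 was not tested in this table, because genes with fewer than 2 values in a group were left out of the fit.

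Tnfrsf11b had the clearest difference of the 4 genes. It stands in the second table, which gives its symbol and no gene identifier, with values of 38.81, 37.91 and 36.54 in siRNA 1 to 3, against 23.71, 25.13 and 25.22 in vehicle 1 to 3. The 2 groups were tight and far apart. The means were 37.8 ± 1.14 with siRNA and 24.7 ± 0.847 with vehicle (SD, n = 3 each), so the siRNA mean was 1.53 times the vehicle mean. The log2 difference was 0.61 ± 0.07 (SE), and Tnfrsf11b rose by limma's test with an adjusted p of 5.56e-07. It lay between 0.58 and 0.63 when each library was left out in turn, with limma adjusted p between 1.52e-11 and 6.48e-05. That range of p does not measure this gene's own spread, since limma shares variance between genes. Without vehicle 1 the SE rose to 0.08 while limma's adjusted p fell to 1.52e-11. Of the 496 genes tested, 6.25% had a larger difference in absolute size. The exact permutation test again gave p = 0.1. RANKL and its receptor RANK, which act with osteoprotegerin in the control of osteoclasts, are not among the genes analysed here.

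**Figure D2:**
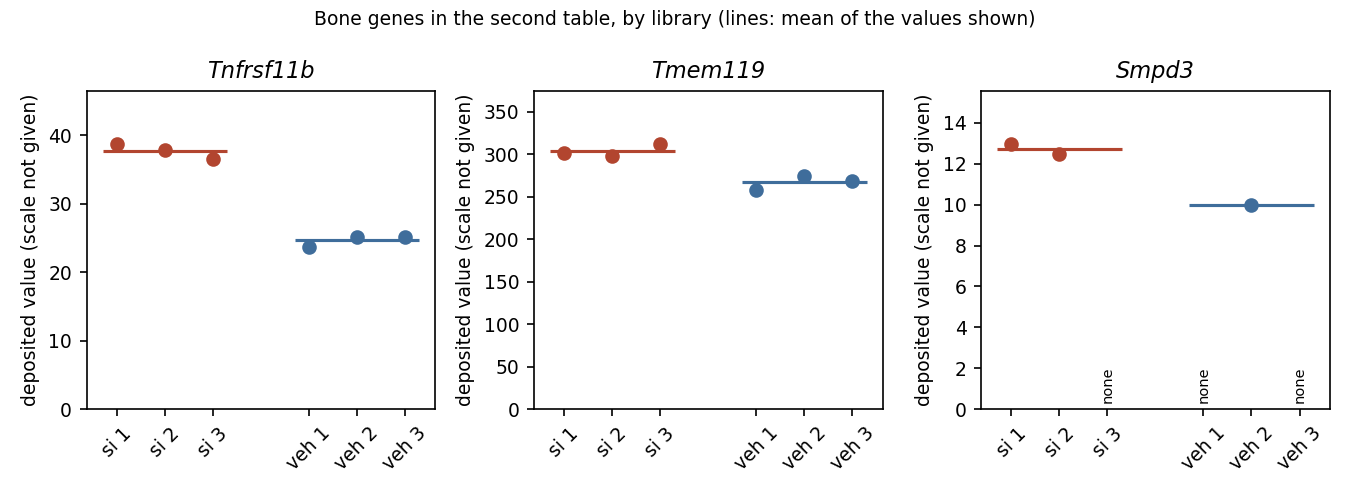
Deposited values (linear axis from 0, scale not given) of Tnfrsf11b, Tmem119 and Smpd3 in each library, siRNA in red and vehicle in blue, with lines at the mean of the values shown. Tnfrsf11b lies between 36.54 and 38.81 in the siRNA libraries and between 23.71 and 25.22 in the vehicle libraries, and Smpd3 has a value in 3 libraries only.

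Set against each table as a whole, the 4 genes were as follows. In the count list, 1 of the 3 genes, Tmem119, had groups that did not overlap and was lower with siRNA, where 12.5% of all 232 genes did, and 1, Dmp1, had separate groups and was higher, where 6.03% did. In the second table both genes with a value in every library, Tnfrsf11b and Tmem119, had separate groups and were higher with siRNA, as did 44% of the 273 such genes, while 53.5% were separate and lower. By limma's test 49.6% of the 496 genes rose and 48.8% fell, so a call in that table is the common outcome.

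Ratios between genes of 1 library do not depend on how libraries are scaled. Counts of Tmem119 over those of Dmp1 were 14.4, 18.9 and 17.2 in siRNA 1 to 3, against 35.5, 40.2 and 1095 in vehicle 1 to 3. The siRNA ratios all lay below the vehicle ratios, also with vehicle 3 left aside, so these 2 osteogenic genes of the count list did not differ by the same factor. In the second table Tmem119 over Tnfrsf11b was 7.77, 7.85 and 8.55 in siRNA 1 to 3, against 10.9, 10.9 and 10.7 in vehicle 1 to 3. There, too, the siRNA ratios were all lower: in the values as given, Tnfrsf11b differed more than Tmem119 did. The scale of that table is not given, and its ratios are free of library scaling only if the values are linear. Counts of Tmem119 over Smpd3 were 94.4, 103 and 106 in siRNA 1 to 3, against 147, 241 and 39.1 in vehicle 1 to 3, and those groups overlapped.

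**Figure D3:**
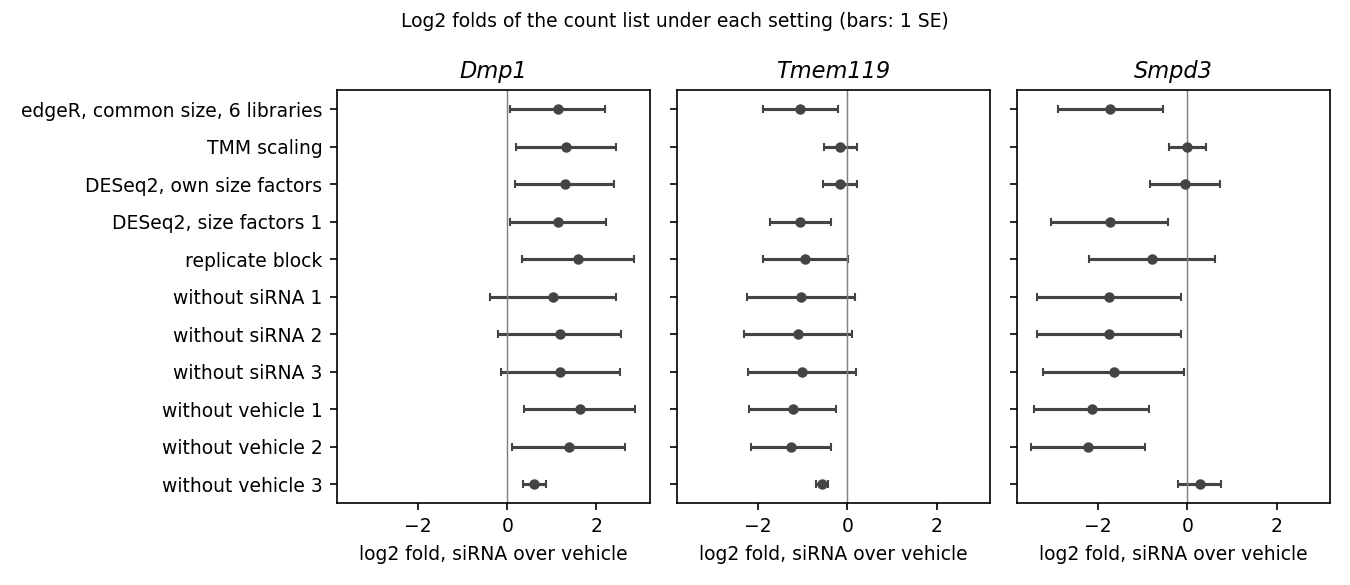
Log2 folds of Dmp1, Tmem119 and Smpd3 in the count list (siRNA over vehicle, bars 1 SE) under each way of scaling, testing or leaving out a library. Dmp1 stays above 0 and Tmem119 below 0 throughout, while Smpd3 runs from -2.22 to 0.27 over the fits without 1 library.

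The deposited tables did not carry the same profile for a gene. For Tmem119 the second-table value per count was 0.456, 0.413 and 0.490 in siRNA 1 to 3, against 0.250, 0.285 and 0.123 in vehicle 1 to 3. A table that was the other one rescaled per library would give all genes 1 common change from library to library. Between vehicle 3 and vehicle 1 this quotient changed 0.491-fold for Tmem119, 0.0194-fold for Enpp1 and 0.0158-fold for Igfbp5, with a median of 0.159 over 14 shared genes. Tmem119 had the highest of the 14, and Igfbp5 and Enpp1 the lowest, on only 6 and 2 counts in vehicle 1. Other genes lay near the median, such as Ogn (0.179), Aspn (0.176) and Dpt (0.155). Because the change was not common to all 14 genes, the tables were tested separately.

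The genes with the profiles most like those of the 4 were found within each table by the mean absolute difference of centred log2 values over the libraries. For Dmp1 they were Samt1d (0.33), Cd207 (0.46) and Orm2 (0.51), where the median over 127 genes compared was 1.76. For Tmem119 in the count list they were Laptm4b (0.11), Pknox2 (0.18) and Accsl (0.20), beside a median of 0.50, and for Smpd3 they were Itgb2 (0.15), Dpt (0.20) and Atg9b (0.21), beside a median of 0.41. In the second table Thbs1 (0.06), Arid5b (0.07) and Nuak1 (0.08) were most like Tnfrsf11b, and Hyou1 (0.01), Tnpo2 (0.02) and Tpm2 (0.02) most like Tmem119. None of these genes is on the bone lists.

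Markers of other cell types were also high in vehicle 3, as were most genes of the list. Of 12 microglia or macrophage markers, 3 are in the count list (Itgb2, Mpeg1 and Cd33), and their summed count was 34, 30 and 27 in siRNA 1 to 3, against 30, 25 and 308 in vehicle 1 to 3. Of 6 endothelial markers, 3 are in it (Clec14a, Mmrn2 and Ecscr), with sums of 55, 81 and 88 in siRNA 1 to 3, against 96, 79 and 517 in vehicle 1 to 3. The summed count of 5 adipogenic genes was 567, 611 and 529 in siRNA 1 to 3, against 637, 595 and 2621 in vehicle 1 to 3. Vehicle 3 over the mean of vehicle 1 and 2 was 11.2 for the microglia or macrophage sum, 5.91 for the endothelial sum and 4.25 for the adipogenic sum, beside the median of 5.72 over single genes of the list. Their part in the high Tmem119 and Smpd3 counts of vehicle 3 was not tested. In bulk RNA, fewer cells of a type and less RNA per cell cannot be told apart. Of 7 genes that define osteoblasts, Runx2, Sp7, Alpl, Bglap, Bglap2, Ibsp and Col1a1, 0 are among the genes analysed here, and the same holds for 4 osteocyte genes, Sost, Mepe, Phex and Fgf23.

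A wider set of 193 other genes on 6 lists was then read in the same fits: osteoblast lineage and matrix, mineralisation control, RANKL and osteoclasts, sphingomyelin and ceramide, cartilage, and BMP and Wnt control. The count list holds 13 of them. All 13 had a negative log2 fold and their highest count in vehicle 3, and 0 passed edgeR's test (4 at an unadjusted p under 0.05; median -2.18, beside -1.55 over all 232 genes). Without vehicle 3, 6 were negative and 5 positive of the 11 that kept enough counts, with a median of -0.05, beside -0.10 over the 201 genes tested so. With TMM scaling 10 were negative and 3 positive (median -0.43, beside -0.12). Of all 232 genes, 207 were negative with 6 libraries and 141 with TMM scaling, as were 119 of 201 without vehicle 3. Vehicle 3 was highest in 201 of the 232. The common direction of these 13 genes was thus that of most of the list, and it was lost without vehicle 3. With all 6 libraries, 3 of the 13 (Aspn, Dkk3 and Lrrc15) had groups that did not overlap and were lower with siRNA. The same held for 12.5% of all 232 genes. Igfbp5 and Enpp1 passed edgeR's test when vehicle 1 was left out (adjusted p 0.0176 and 0.0225) and when vehicle 2 was (0.0330 for each), fits in which vehicle 3 is 1 of 2 vehicle libraries.

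Among matrix genes of the count list, the small proteoglycan gene Ogn, for osteoglycin, had 294, 317 and 458 counts in siRNA 1 to 3, against 379, 465 and 2196 in vehicle 1 to 3. Igfbp5, a binding protein of insulin-like growth factors that osteoblasts secrete into bone, had 8, 2 and 14 counts with siRNA, against 6, 6 and 456 with vehicle. Vehicle 3 alone was high for Igfbp5, whose log2 fold was -4.26 with it and 0.41 without it. Lrrc15, a membrane protein with leucine-rich repeats, had 3, 1 and 3 counts with siRNA, against 7, 4 and 31 with vehicle. Its groups did not overlap, but its counts were low in every library except vehicle 3.

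Among genes that restrain or tune mineral, Aspn had 82, 93 and 112 counts in siRNA 1 to 3, against 139, 136 and 785 in vehicle 1 to 3. Aspn encodes asporin, which binds collagen and calcium. Its groups did not overlap, with siRNA lower, as in 12.5% of all 232 genes. The log2 fold of Aspn was -1.88 with vehicle 3 and -0.52 without it. Enpp1, which makes the mineral inhibitor pyrophosphate, had 2 counts in each siRNA library, against 2, 0 and 115 with vehicle. The carbonic anhydrase gene Car12 had 14, 9 and 20 counts with siRNA, against 19, 21 and 120 with vehicle, so its groups overlapped. Ucma, a cartilage protein rich in gamma-carboxyglutamate, had 1 count in each siRNA library, against 0, 3 and 18 with vehicle.

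The genes of resorption and sphingolipid metabolism in the count list were Mmp9, Lrrc17 and Sphk1. Mmp9, a gelatinase abundant in osteoclasts, had 186, 211 and 154 counts in siRNA 1 to 3, against 146, 120 and 881 in vehicle 1 to 3. All siRNA libraries lay above vehicle 1 and 2 and below vehicle 3, so its log2 fold was -1.06 with vehicle 3 and 0.47 without it. Sphk1, which phosphorylates sphingosine, had 34, 32 and 20 counts with siRNA, against 26, 22 and 177 with vehicle, and log2 folds of -1.38 and 0.26 with and without vehicle 3. For Lrrc17, which inhibits osteoclast formation in mice, the counts were 5, 7 and 6 with siRNA, against 5, 5 and 73 with vehicle. The cartilage genes were Itga10, a collagen-binding integrin subunit, at -1.11 with vehicle 3 and -0.05 without it on the log2 scale, and Cilp, a protein of the cartilage intermediate layer, at -3.43 and 1.17. Dkk3, of the Dickkopf family of Wnt regulators, had 8, 10 and 8 counts with siRNA, against 11, 14 and 110 with vehicle, and its groups did not overlap.

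The second table holds 23 of the 193 genes, and 17 of them had at least 2 values in each group. All 17 passed limma's test, 11 lower and 6 higher with siRNA, where 48.8% of all 496 genes fell and 49.6% rose. A call for each of the 17 was thus the common outcome of the table. Their median log2 difference was -0.22, beside 0.13 over all 496 genes, of which 243 were negative. The bone genes of this table therefore went in both directions. By list, 5 of 5 tested osteoblast and matrix genes fell. Spp1 is on both this list and the mineralisation list and is counted in each. Of 4 mineralisation genes, 3 fell and 1 rose; of 5 BMP and Wnt genes, 3 fell and 2 rose; of 3 cartilage genes, 1 fell and 2 rose; and the 1 gene of the RANKL and osteoclast list rose.

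Of the osteoblast and matrix genes, Spp1, which encodes osteopontin, an acidic protein that binds mineral and integrins, had values of 383.6, 419.03 and 417.9 in siRNA 1 to 3, against 545.2, 528.29 and 525.66 in vehicle 1 to 3. Every siRNA value lay well below every vehicle value, a log2 difference of -0.39 (limma adjusted p = 9.33e-07). Ogn had 215.1, 232.72 and 214.91 with siRNA, against 264.49, 253 and 274.5 with vehicle (-0.26). Cdh11, the cadherin of osteoblasts and other mesenchymal cells, had 57.83 and 57.75 in siRNA 2 and 3, against 75.86, 73.35 and 78.65 with vehicle (-0.39). The vitamin D receptor gene Vdr had 24.23, 25.53 and 27.28 with siRNA, against 33.81 and 35.21 in vehicle 1 and 3 (-0.43). Pdpn, which encodes podoplanin, a membrane glycoprotein of early osteocytes and of many stromal cells, had a log2 difference of -0.22. Tmem119 stood on the same list with the opposite sign, 0.19.

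Of the genes that act on mineral, Mgp, matrix Gla protein and an inhibitor of calcification, rose with siRNA. Its values were 1184.54, 1405.8 and 1393.31 in siRNA 1 to 3, against 992.42, 971.97 and 980.82 in vehicle 1 to 3, a log2 difference of 0.43 (limma adjusted p = 1.75e-06). Another inhibitor's gene, Enpp1, fell: its values were 12.58 and 14.22 in siRNA 1 and 3, against 20.26, 19.36 and 22.61 with vehicle (-0.63). Aspn fell too, with 85.63 and 88.46 in siRNA 1 and 3, against 116, 107.5 and 115.09 with vehicle (-0.37). Spp1, also on the mineralisation list, had a log2 difference of -0.39. Of the 4 tested genes on that list, Mgp thus lay above 0, and Enpp1, Aspn and Spp1 lay below it.

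Beside Tnfrsf11b, the growth factor gene Csf1, which macrophages and osteoclast precursors need, rose, with 782.16, 757.29 and 814.51 in siRNA 1 to 3, against 684.79, 689.32 and 685.04 in vehicle 1 to 3 (0.19). The Wnt pathway enhancer Rspo3 had 5.56, 5.65 and 6.32 with siRNA, against 2.98, 3.78 and 3.47 with vehicle, and at 0.76 it had the largest log2 difference of the 17. Lef1, a nuclear partner of beta-catenin, rose by 0.30. Bmp1, the protease that trims procollagen (-0.16; limma adjusted p = 0.00595, and 0.0903 with median-centred libraries), Fstl1, a secreted glycoprotein (-0.21), and Id4, an inhibitor of helix-loop-helix factors (-0.39), fell. In the cartilage list the collagen-binding proteoglycan genes Fmod (0.53) and Prelp (0.17) rose, and Sox9, the chief chondrocyte transcription factor, fell (-0.33).

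**Figure D4:**
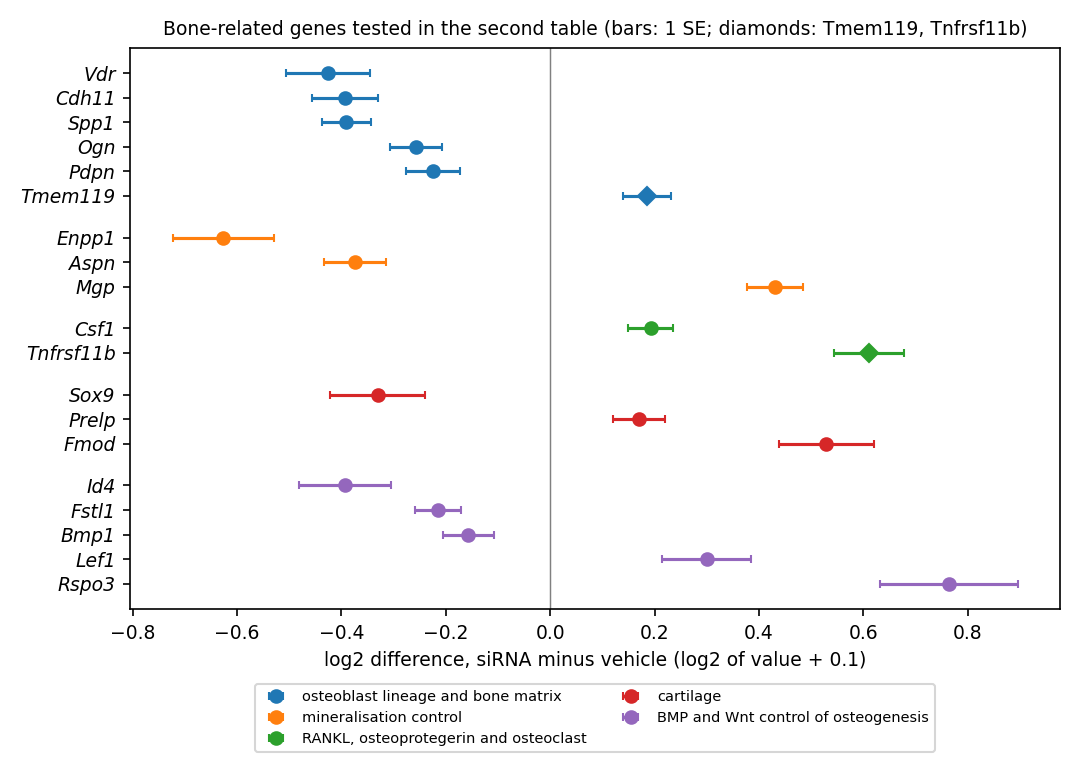
Log2 difference (siRNA minus vehicle, bars 1 SE) of the bone-related genes tested in the second table, coloured by the first list each is on, with Tmem119 and Tnfrsf11b as diamonds. Genes lie on both sides of 0, from -0.63 for Enpp1 to 0.76 for Rspo3.

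Of the 23 genes, 6 had too few values for a test. Bmp2, a strong inducer of osteoblasts, had 3.78 in siRNA 1, against 1.91, 1.83 and 1.49 in vehicle 1 to 3, and the ceramide synthase gene Cers6 had 66.93 in siRNA 1, against 55.41, 54.78 and 60.13. Sparc, osteonectin, had 2773.27, 2871.66 and 2717.59 with siRNA, against 3018.69 in vehicle 1. Igfbp5 had 8.45 in siRNA 3, against 13.94, 15.51 and 16.74 with vehicle, and Fap, a serine protease of stromal cells, had 1.89 in siRNA 3, against 4.42 in vehicle 3. Col2a1, the collagen of cartilage, had 18.13, 15.35 and 14.55 with siRNA and no value with vehicle. These single values also lay on both sides.

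Of the bone-related genes, 6 stand in both tables. Their log2 values, count list first and second table after it, were -1.05 and 0.19 for Tmem119, -1.73 and 0.35 for Smpd3, -1.51 and -0.26 for Ogn, -1.88 and -0.37 for Aspn, -4.20 and -0.63 for Enpp1, and -4.26 and -0.86 for Igfbp5. The second-table values of Smpd3 and Igfbp5 were not tested. Without vehicle 3 the count-list values were -0.57 for Tmem119, 0.27 for Smpd3, -0.24 for Ogn, -0.52 for Aspn and 0.41 for Igfbp5, while Enpp1 had too few counts. Tmem119 thus had opposite signs in the tables with and without vehicle 3, Smpd3 only with it and Igfbp5 only without it. The 2 tables name the same libraries, so neither checks the other.

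**Figure D5:**
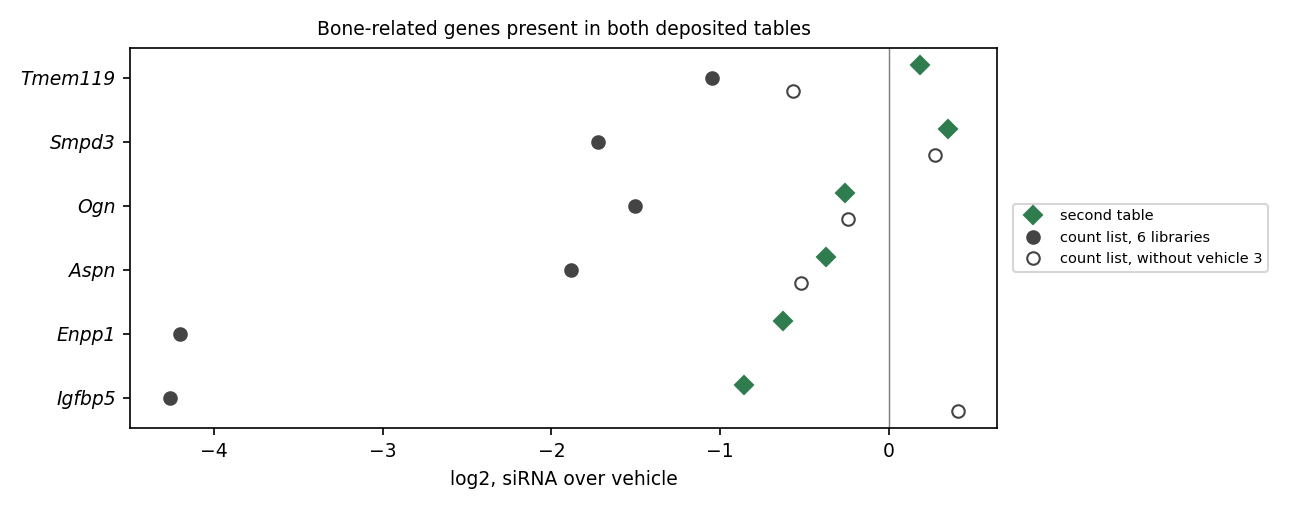
Log2 values (siRNA over vehicle) of the 6 bone-related genes in both tables: second table (diamonds), count list with 6 libraries (filled circles) and without vehicle 3 (open circles; Enpp1 then has too few counts). The second-table values of Smpd3 and Igfbp5 rest on 1 library in a group; Tmem119 is at 0.19 in the second table and at -1.05 in the count list.

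For the adipogenic fate, a list of 33 genes gave 6 tested genes in the second table, and 6 of 6 fell with siRNA by limma's test, with a median log2 difference of -0.49, where 48.8% of all 496 genes fell and the median was 0.13. With median-centred libraries 5 of the 6 fell, without the desaturase gene Scd1. In the count list 5 genes of the adipogenic list were tested and 0 passed edgeR's test (0 also at an unadjusted p under 0.05, and 0 by DESeq2). There 5 of 5 were negative, as were 207 of all 232 genes. Without vehicle 3, 4 were negative and 1 positive, beside 119 and 80 over the 201 genes tested so. Adipoq, the adipocyte hormone adiponectin, had values of 3.47 and 2.83 in siRNA 1 and 3, against 8.76 and 8.96 in vehicle 1 and 2. The fall was not particular to the adipogenic list. Of 10 marker genes of preadipocytes or fibroblasts, 3 were tested in the second table, and 3 of 3 fell by limma's test (median -0.27). Tnfrsf11b and Tmem119 thus lay above 0 in the table where the measured adipogenic genes lay below it. The osteoblast and matrix genes Spp1, Ogn, Cdh11, Vdr and Pdpn lay below 0 as well. Whether the osteogenic and adipogenic lists differed from each other was not tested.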

How the data were processed

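RNA of 6 libraries was sequenced on a BGISEQ-500, and the authors aligned reads with HISAT and Bowtie2. The submitters' processing notes also name RSEM and DESeq2. Tool versions, genome build, annotation and strandedness: not given in the sources used here. Coordinates are therefore not printed, and gene overlaps were read from the GENCODE M21 annotation. The first deposited table holds expected counts, as RSEM estimates them (86.8% whole). The second deposited table holds values of unknown scale, treated as a score, with 3612 cells: 3042 were used, and 528 in a date format and 42 shown as calendar dates were left out. Of the 528, 526 were within 0.01 of the mean of the group's other values. Its first 232 rows repeat the count list. In all, 4 columns of the authors' means and of their own comparison (fold changes and p-values) were not used.

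Counts were rounded and tested in edgeR 4.0.16 (quasi-likelihood, R 4.3.3) with 1 common library size, for genes with a summed count of at least 10. The SE given with an edgeR fold was derived, as the absolute log2 fold over the square root of the test's F statistic. The second table was tested with limma 3.58.1 (trend) on log2(value + 0.1), for genes with at least 2 values in each group. Its p-values draw on variance shared between the genes tested as well as on each gene's own spread. Adjustment (Benjamini-Hochberg) was over each whole table, at a threshold of 0.05. Permutation tests were exact and two-sided, on log2 values with 0.5 added to counts. The edgeR and limma fits were also run on simulated data. Those libraries had equal expected depth and none stood apart as vehicle 3 does, so that run does not bear on its effect. The 4 genes and all gene lists were chosen with earlier results of these data known. Genes named are the 4, the measured genes of the bone lists, and the 3 genes most like each of the 4 in its table (mean count of at least 20 in the count list). Alternatives were TMM scaling, DESeq2 1.42.0, no filter, group medians, another pseudocount of 1, median-centred libraries, values in all 6 libraries only, date-format cells included, a replicate block and leaving out each library.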

Additional observations from a re-analysis of the deposited data

How the results depend on the processing

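The log2 fold of Smpd3 in the count list ran from -2.22 to 0.27 when each library was left out, with the sign turned without vehicle 3, and was 0 as a ratio of group medians. In the second table its untested difference was 0.44 with median-centred libraries. Tmem119 in the count list was -0.15 with TMM and -0.17 with DESeq2's own size factors. Of the other bone genes in the count list, between 6 and 13 were negative when each library was left out (6 of 11 without vehicle 3). With values in all 6 libraries only, 5 other bone genes were lower in the second table, and 149 and 122 of 273 genes were lower and higher, since fewer genes were tested. DESeq2 with its own size factors called 1 gene in the count list, and leaving out a library gave between 0 and 6 (6 without vehicle 1, 5 without vehicle 2); the cause was not tested. Of the alternative log2 values with a test, 54 kept their direction and side of the threshold, though Smpd3 was near 0 with TMM (-0.00) and DESeq2's own size factors (-0.06), and 1 reversed. Of those with no test, 6 counted as unchanged. For ratios of group medians this meant the same direction (0.65 for Dmp1 and -0.64 for Tmem119 on the log2 scale). For Smpd3 in the second table it meant a shift within 1 SD of its log2 siRNA values (0.04). The other 2 are the Smpd3 values given first: 0 has no direction, and 0.44 kept its direction but moved beyond that SD. Of the alternative counts of genes, 59 were within 1.5 times the main count and 7 were not. Taking date-format cells as numbers gave Smpd3 an adjusted p of 2.55e-04 in limma, which rests on filled-in values. With median-centred libraries, 10 of the 11 other bone genes stayed lower, without Bmp1.

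Same-numbered libraries did not deviate together throughout (r of 0.0618, 0.0514 and 0.123 in the count list and 0.253, 0.123 and 0.0343 in the second table), and siRNA 1 was closest to vehicle 2 in the count list (0.0630). With the replicate block the log2 values were 1.58 for Dmp1, -0.94 for Tmem119 and -0.80 for Smpd3 in the count list, and 0.19 for Tmem119 and 0.61 for Tnfrsf11b in the second table. It called 0 genes in the count list, and 238 lower and 238 higher in the second table, and changed no call for these genes.

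Dmp1 and Smpd3 have few counts, and total depth per library is unknown from short lists. The second table's unknown scale limits its values to comparisons within a gene, and its ratio of Tmem119 to Tnfrsf11b holds only for linear values.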
